A study of Mus musculus with 6 samples.

Results

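The genes described here encode the nuclear subunits of the respiratory chain and ATP synthase, with the complex I assembly factors that carry the same name stem. They were chosen by symbol: probe sets of the array with 1 annotated gene symbol that starts with Nduf, Uqcr, Cox4 to Cox8 or Atp5, or that is Sdha, Sdhb, Sdhc or Sdhd. This gave 179 of 45037 probe sets and 90 of 18193 named genes. There were 44 genes of complex I, 4 of complex II, 8 of complex III, 17 of complex IV and 17 of complex V. A filter on dim probe sets kept 84 of the 90 genes, through 155 probe sets. The 6 genes below it were Cox4i2, Cox6b2, Cox7a1, Cox7b2, Cox8b and Ndufb4, and 10 probe sets that match several symbols were left out. Each gene is given by its brightest probe set.

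RNA came from spinal cord at the level of the first lumbar segment (L1). The mice were male SCID mice (severe combined immunodeficiency), a strain without functional B and T cells. The labels give an age of 9 weeks in the housing protocol and of 15 weeks when tissue was taken, which was 6 weeks after injection. Mice of the N-inv group had received Capan-1 cells, an established human pancreatic cancer line, in the left sciatic nerve. The SC group carried the same cells under the skin, and the PBS group received saline without cells. Each group had 2 arrays. No label states that both arrays of a group are from different animals, so p-values reflect the spread of these samples only, and that spread may be technical. The 3 comparisons share arrays and are not independent of each other.

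Complex I (NADH dehydrogenase) and complex II (succinate dehydrogenase) pass electrons to ubiquinone, complex III passes them to cytochrome c, and complex IV passes them to oxygen. The proton gradient built along the way drives complex V, the ATP synthase. Most of the ATP of neurons is made by this route. Some subunits are encoded by mitochondrial DNA, and the genes described here are nuclear.

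Values are array intensities scaled to a common median of 255.8 per array. Differences are on the scale of log2(intensity + 25.58), which understates the change of dim genes, and were tested with limma in 1 model over the 6 arrays, with Benjamini-Hochberg adjustment over 27022 probe sets. The SC arrays stood apart: their median correlation with the other arrays was 0.970 and 0.969, against 0.980 for each of the other 4. Control probes for Actb gave 3' to 5' ratios, a measure of RNA integrity, of 3.81 and 4.70 in SC and 3.05 to 3.57 elsewhere. For Gapdh they were 3.52 and 3.38 in SC and 2.82 to 3.38 elsewhere. Xist, an RNA of female cells, measured 13042 in SC replicate 2 and 138.3 to 228.1 on the other arrays, although all mice are labelled male. Eif2s3y, a gene of the Y chromosome, measured 1342 and 3147 in SC and 2365 to 2647 elsewhere. Where leaving out SC replicate 2 moved a difference of SC by more than 1.5 times, or across an unadjusted p of 0.05, the value without it is also given. Exceptions are stated. Neuron markers were present as the tissue label implies: 9 of 9 passed the filter, against 3 of 9 markers of skeletal muscle. In bulk tissue, fewer cells of a type and less RNA per cell cannot be told apart.

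The promoters below are of 4 of the 5 members with an unadjusted p under 0.05 in a comparison with SC (the other is Sdhc). Sdha is added as the member with the most matches to the site of NRF1, a regulator of respiratory genes. Each promoter is the 250 bases before the first listed start site of RefSeq (GRCm38.p6), 5′ to 3′ on the gene's strand. Capitals mark CCAAT and the NRF1 site (GCGCA and GCGC with 1 base of any kind between them), both searched on both strands. All are on the minus strand: Ndufaf2 at chr13:108158626-108158875, Ndufaf3 at chr9:108567437-108567686, Atp5pb at chr3:105959264-105959513, Cox7c at chr13:86046796-86047045 and Sdha at chr13:74350241-74350490.
Ndufaf2: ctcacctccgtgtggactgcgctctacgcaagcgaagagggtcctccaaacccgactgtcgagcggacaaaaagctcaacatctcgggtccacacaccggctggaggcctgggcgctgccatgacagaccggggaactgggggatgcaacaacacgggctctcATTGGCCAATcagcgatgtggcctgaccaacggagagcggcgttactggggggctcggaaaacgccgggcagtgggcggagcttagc
Ndufaf3: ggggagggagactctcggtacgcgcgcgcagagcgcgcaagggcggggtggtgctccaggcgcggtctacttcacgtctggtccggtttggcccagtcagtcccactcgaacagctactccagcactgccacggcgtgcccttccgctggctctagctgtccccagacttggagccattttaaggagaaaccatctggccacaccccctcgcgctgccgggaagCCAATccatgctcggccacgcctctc
Atp5pb: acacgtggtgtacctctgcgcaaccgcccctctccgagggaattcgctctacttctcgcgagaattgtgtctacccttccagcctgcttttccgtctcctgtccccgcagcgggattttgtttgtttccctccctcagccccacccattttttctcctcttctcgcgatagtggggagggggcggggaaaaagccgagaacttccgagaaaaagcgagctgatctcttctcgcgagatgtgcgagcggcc
Cox7c: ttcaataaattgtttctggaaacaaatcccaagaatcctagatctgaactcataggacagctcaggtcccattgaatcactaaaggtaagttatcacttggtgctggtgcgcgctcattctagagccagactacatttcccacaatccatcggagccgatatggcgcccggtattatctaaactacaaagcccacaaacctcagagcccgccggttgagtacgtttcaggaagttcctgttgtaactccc
Sdha: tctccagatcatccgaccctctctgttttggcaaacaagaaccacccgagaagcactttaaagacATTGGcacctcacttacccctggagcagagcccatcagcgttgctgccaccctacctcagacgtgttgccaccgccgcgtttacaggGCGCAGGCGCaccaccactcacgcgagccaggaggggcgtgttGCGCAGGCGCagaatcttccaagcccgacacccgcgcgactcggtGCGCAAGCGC
Ndufaf2 holds 2 adjacent CCAAT matches on opposite strands, Ndufaf3 holds 1, and Atp5pb and Cox7c hold no searched motif. Sdha holds 3 NRF1 matches, at 98, 55 and 10 bases before the start, and 1 CCAAT match. Promoters were found for 69 of the 84 genes, out of 27025 in the table. The NRF1 site was in 10 of the 69 (14.5%) and in 3.86% of all promoters of this length. The ETS core CCGGAAG, which the GABP factor binds, was in 13 (18.8%) against 7.05%. CCAAT was in 28 (40.6%) against 34.5%, and the YY1 site AAGATGGC was in 0 against 1.59%. The ETS core ends and the YY1 site starts with AAG, so that these motifs can overlap, and CCAAT can overlap its own reverse complement, as in Atp5g1. A match is a description and not a bound site.

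None of the 84 genes passed the adjusted threshold of 0.05 in any of the 3 comparisons with limma. The same was true of all 27022 probe sets, so the background of adjusted calls was 0% in each comparison. At an unadjusted p under 0.05, 613 probe sets were higher and 476 lower in N-inv against PBS. There were 1609 and 797 in N-inv against SC, and 736 and 1393 in SC against PBS. The respiratory genes differed little between the groups. Their median absolute log2 difference was 0.06 in N-inv against PBS, 0.08 in N-inv against SC and 0.08 in SC against PBS, while over all 12626 genes it was 0.11, 0.16 and 0.15. Much of this is shared with other bright probe sets: 56 of the 84 genes lie in the brightest 10% of genes, whose median absolute difference was 0.08, 0.10 and 0.10.

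The size of difference these data allow can be read from the 95% intervals. In N-inv against PBS the interval lay within a 1.5-fold change in either direction for 73 of the 84 genes (86.9%). In N-inv against SC this held for 67 (79.8%) and in SC against PBS for 66 (78.6%). For all genes the shares were 48.2%, 38.3% and 39.8%, and for the brightest 10% they were 74.6%, 66.8% and 67.5%. The median standard error of a member was 0.16.

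In N-inv against PBS, 55 genes were higher and 29 lower, with a median log2 difference of 0.03 and a range from -0.20 to 0.57. Over all genes the median was 0.04. The smallest adjusted p of a member was 0.999978, and 0 had an unadjusted p under 0.05, against a background of 2.19% of genes higher and 1.14% lower. In the brightest 10% of genes that background was 0.554% and 0.0792%. The arrays of the groups did not overlap in 23 higher genes (27.4%; background 25.2%) and in 12 lower genes (14.3%; background 12.6%). These shares lie near the background of all genes, while in the brightest 10% they were 39.7% and 4.04%. The direction of the median depends on scaling: with the values as deposited it was -0.00374, and with quantile normalization -0.04, with 24 genes higher and 60 lower.

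In N-inv against SC, 45 genes were higher and 39 lower, with a median of 0.01 against 0.06 over all genes. Sdhc, Ndufaf3 and Ndufaf2 were higher at an unadjusted p under 0.05 (3.57% of members; background 6.10%), and Cox7c was lower (1.19%; background 2.06%). Arrays did not overlap in 19 higher genes (22.6%; background 25.4%) and 17 lower genes (20.2%; background 11.3%). In the brightest 10% the shares without overlap were 18.2% and 9.50%, and those at an unadjusted p under 0.05 were 2.38% and 0.950%. The difference from the members was not tested. The median was -0.05 with the values as deposited and -0.02 with quantile normalization. Without SC replicate 2 it was 0.08, and without SC replicate 1 it was -0.07.

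In SC against PBS, 48 genes were higher and 36 lower, with a median of 0.03 against -0.02 over all genes. Cox7c and Atp5pb were higher at an unadjusted p under 0.05 (2.38% of members; background 2.24%), and Ndufaf2 and Sdhc were lower (2.38%; background 4.49%). Arrays did not overlap in 15 higher genes (17.9%; background 13.7%) and 14 lower genes (16.7%; background 19.8%). In the brightest 10% of genes arrays did not overlap in 16.5% (higher) and 10.3% (lower). There the shares at an unadjusted p under 0.05 were 1.43% and 1.74%, and the difference from the members was not tested. The median of the members was 0.04 with the values as deposited and -0.03 with quantile normalization. Without SC replicate 2 it was -0.05, and without SC replicate 1 it was 0.09. Leaving out SC replicate 2 also changed which members had an unadjusted p under 0.05. Ndufa4l2, Ndufb5 (0.47) and Uqcr10 joined those of N-inv against SC. In SC against PBS, Atp5l, Cox6a2 (0.84), Ndufa6 (-0.44) and Uqcr10 (0.45) joined, and Atp5pb no longer passed.

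**Figure D1:**
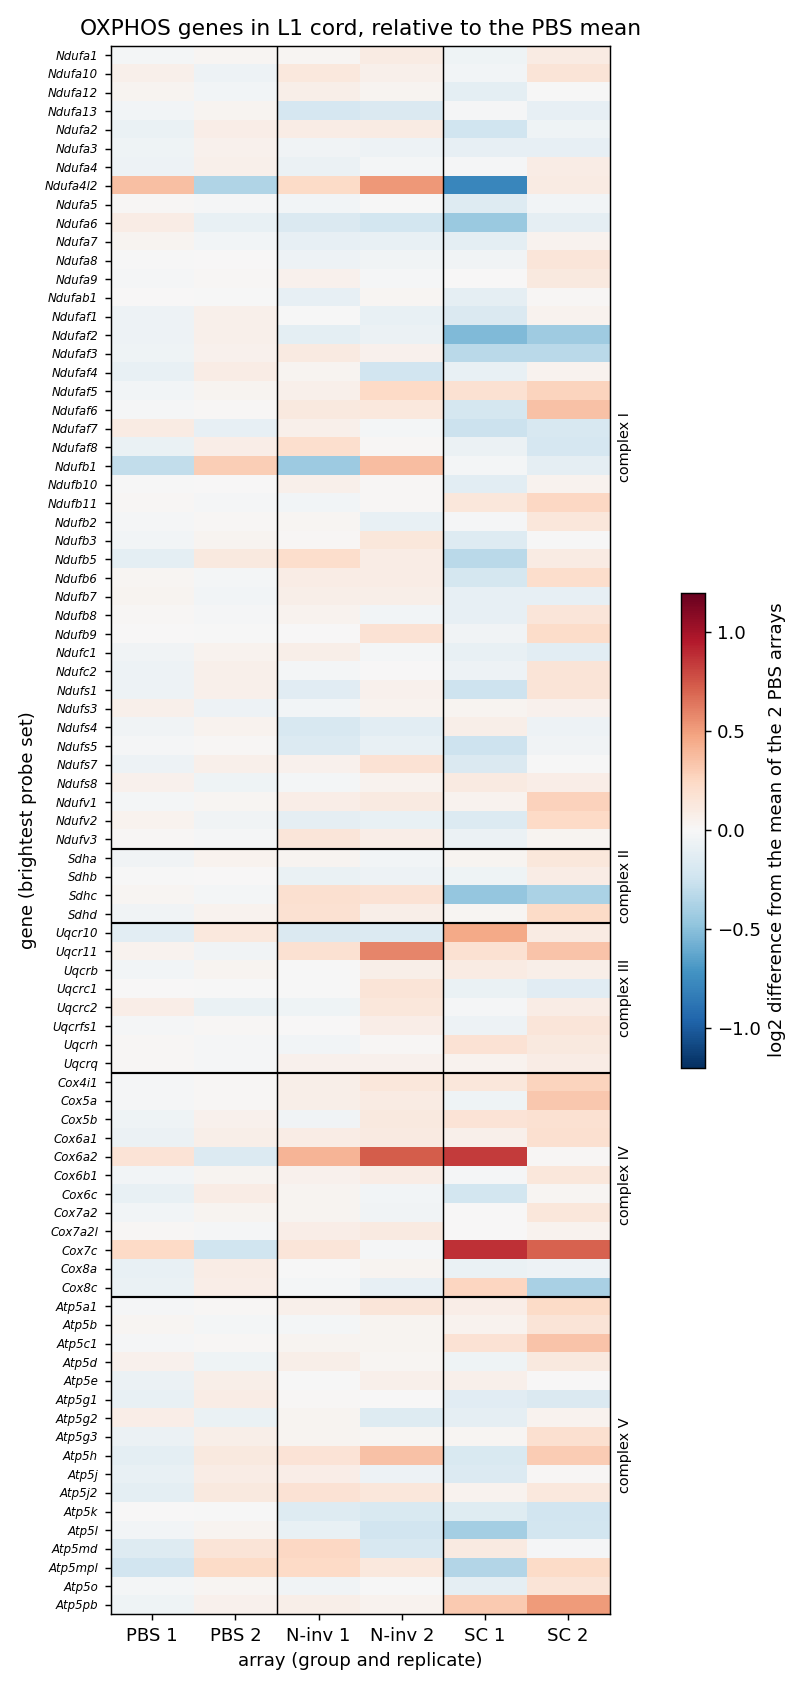
The heat map plots the log2 difference of each of the 84 genes (rows, by complex) from the mean of the 2 PBS arrays, with 1 column per array. Most cells are near 0, and the strongest colours belong to genes whose brightest probe set is dim, such as Cox7c, Cox6a2 and Ndufa4l2.

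The median absolute log2 difference of the members between the 2 arrays of a group was 0.09 in PBS, 0.07 in N-inv and 0.15 in SC. Between group means it was 0.06 in N-inv against PBS, 0.08 in N-inv against SC and 0.08 in SC against PBS. A mean of 2 arrays varies less than a single array, so these values cannot be set directly against those within groups. Relative to each gene's mean over the arrays, the median member lay at -0.04 and 0.00 in the PBS arrays, 0.01 and 0.02 in N-inv, then -0.06 and 0.07 in SC. SC replicate 2 was above SC replicate 1 in 64 of the 84 genes (76.2%), with a median difference of 0.13. Over all genes the same was true of 69.1%, with a median of 0.18.

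**Figure D2:**
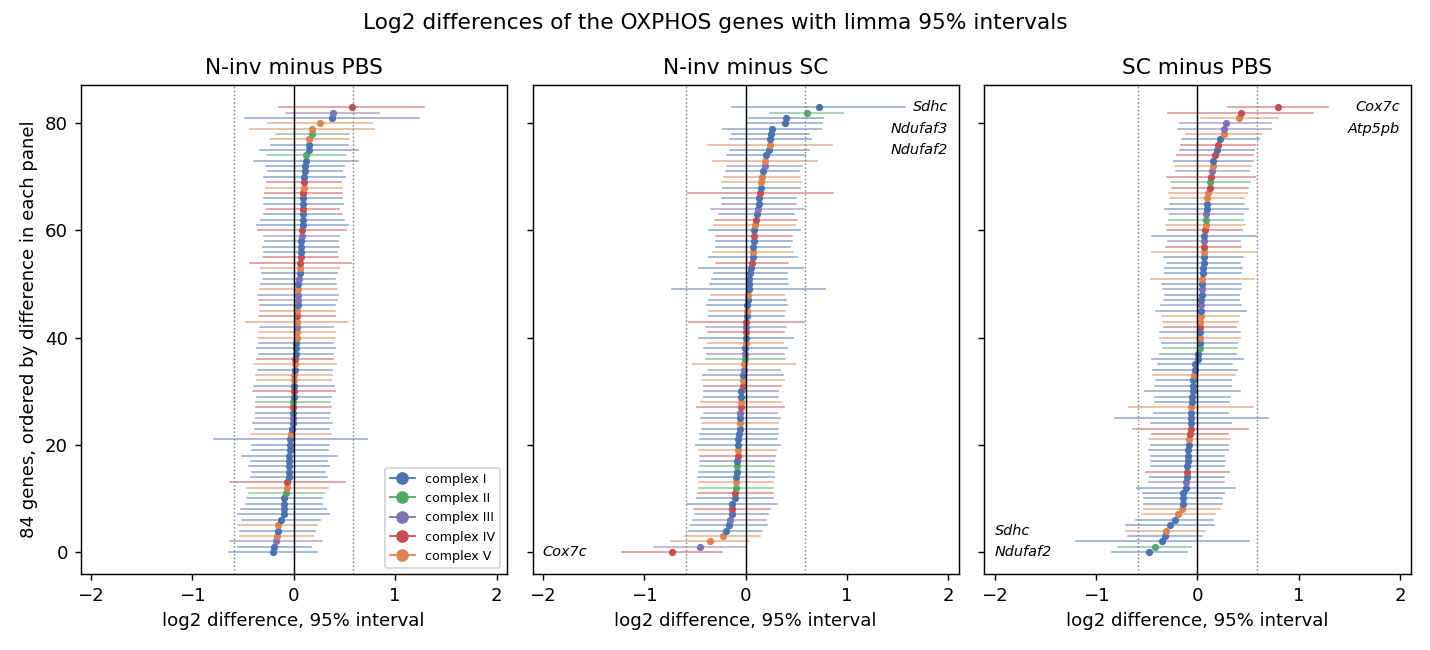
Each panel plots the log2 difference (point) and limma 95% interval (line) of the 84 genes for 1 comparison, ordered by difference and coloured by complex. Dotted lines mark a 1.5-fold change, and names mark genes with an unadjusted p under 0.05, of which N-inv minus PBS has none.

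Complex I had 43 genes above the filter. Its 6 measured core genes, which hold the flavin and the iron-sulfur clusters, had a median of 0.01 in N-inv against PBS, and -0.06 with quantile normalization. In N-inv against SC they lay between -0.13 and 0.20, or between -0.10 and 0.28 without SC replicate 2. These are values of the brightest probe sets. The tested probe sets of Ndufs8 spanned a log2 range of 1.08 in this comparison, the largest of any member. Ndufv1, the subunit that takes electrons from NADH, measured 25222 and 26108 (PBS), 27059 and 27623 (N-inv), and 26380 and 31004 (SC). N-inv and SC arrays overlapped, and N-inv minus PBS was 0.09 ± 0.16 (SE, 95% interval -0.30 to 0.48). Ndufs1, the largest iron-sulfur subunit, measured 9916 and 10806 in PBS, 9397 and 10762 in N-inv, then 8728 and 11532 in SC. Its 3 groups overlapped, with N-inv minus SC at 0.00 ± 0.20 (SE), and at 0.20 without SC replicate 2. N-inv minus PBS was -0.10 for Ndufv2, 0.00 for Ndufs3, 0.11 for Ndufs7 and 0.01 for Ndufs8, the other core genes, each with an interval within a 1.5-fold change.

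The 29 measured accessory genes of complex I were listed by symbol, and so count Ndufa4 and its paralog Ndufa4l2. Accessory subunits surround the core and stabilise it. Medians of the 29 genes were 0.00 in N-inv against PBS, 0.03 in N-inv against SC and -0.04 in SC against PBS. With the values as deposited these were -0.03, -0.02 and -0.03. The medians in N-inv against SC and in SC against PBS were 0.11 and -0.09 without SC replicate 2. Ndufa13, also known as GRIM-19, measured 26642 and 27810 (PBS), 23620 and 24097 (N-inv), and 27035 and 25468 (SC). Both N-inv arrays were the lowest, at -0.19 ± 0.15 (SE) against PBS. Ndufa6 measured 6708 and 5935 in PBS, 5576 and 5397 in N-inv, then 4634 and 5864 in SC. Both PBS arrays were above the other 4, with N-inv minus PBS at -0.20 ± 0.18 (SE). Ndufa4 is now placed in complex IV. It measured 13814 and 15011 (PBS), 13717 and 14182 (N-inv), and 14278 and 15339 (SC), and N-inv overlapped PBS. Its paralog Ndufa4l2, known as a target of hypoxia signalling, was dim and variable: 283.5 and 161.2 in PBS, 256.0 and 319.0 in N-inv, then 113.6 and 231.4 in SC. N-inv minus SC was 0.72 ± 0.36 (SE, 95% interval -0.14 to 1.58, adjusted p = 0.615 in limma). It was 1.16 without SC replicate 2, at an unadjusted p under 0.05, and 0.28 without SC replicate 1.

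The 8 assembly factors of complex I, which help to build the complex and are not part of the finished enzyme, had the widest median difference among the groups of member genes in N-inv against SC. The median was 0.15, with 6 of 8 higher (75.0%, against 60.5% of all genes), and in SC against PBS it was -0.10, with 2 of 8 higher (25.0%, against 46.8% of all genes). With quantile normalization the medians were 0.07 and -0.06, with 4 of 8 higher and 5 of 8 lower. The medians became 0.06 and -0.08 with SC replicate 1 left out, or 0.23 and -0.19 with SC replicate 2 left out. In N-inv against PBS the median was 0.05.

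Ndufaf2, a chaperone of late complex I assembly, measured 2207 and 2408 (PBS), 2130 and 2198 (N-inv), and 1594 and 1709 (SC). Both SC arrays were below the other 4. SC minus PBS was -0.48 ± 0.15 (SE, 95% interval -0.85 to -0.11, adjusted p = 0.582 in limma), and N-inv minus SC was 0.39 ± 0.15 (adjusted p = 0.550 in limma). Ndufaf3, which acts early in assembly, measured 1768 and 1909 in PBS, 1977 and 1903 in N-inv, then 1467 and 1465 in SC. Again both SC arrays were the lowest, with N-inv minus SC at 0.40 ± 0.15 (SE, adjusted p = 0.529 in limma) and SC minus PBS at -0.32 ± 0.15 (SE). With SC replicate 2 left out, N-inv minus SC was 0.43 for Ndufaf2 and 0.40 for Ndufaf3. Ndufaf7 was also lower in both SC arrays, at 1168 and 1218 against 1498 and 1308 in PBS and 1463 and 1381 in N-inv. Ndufaf5 lay the other way, at 2067 and 2190 in SC and 1772 and 1866 in PBS.

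Complex II joins the citric acid cycle to the chain, and its 4 genes are all nuclear. Sdhc, which with Sdhd anchors the complex in the inner membrane, had the smallest p of all members. It measured 4955 and 4814 (PBS), 5584 and 5498 (N-inv), and 3528 and 3759 (SC). The 3 groups did not overlap, with N-inv highest and SC lowest. N-inv minus SC was 0.60 ± 0.15 (SE, 95% interval 0.24 to 0.96, adjusted p = 0.449 in limma). SC minus PBS was -0.42 ± 0.15 (SE, 95% interval -0.78 to -0.06, adjusted p = 0.600 in limma), and N-inv minus PBS was 0.18 ± 0.15 (SE). Its dimmer probe set also had both SC arrays lowest, at 1520 and 1714, against 2133 and 2233 in PBS and 2248 and 1954 in N-inv. N-inv minus SC was 0.65 and SC minus PBS -0.47 without SC replicate 2.

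The other 3 genes of complex II did not share this pattern of values. Sdha, the flavoprotein that oxidises succinate, measured 20793 and 22013 in PBS, 21835 and 20858 in N-inv, then 21874 and 23438 in SC. Its probe sets differed: N-inv minus PBS was -0.004 on this brightest probe set and 0.24 with the mean of all tested probe sets. Their range of 0.68 was the largest of any member in that comparison. Sdhb, the iron-sulfur subunit, measured 14861 and 14990 (PBS), 14153 and 14264 (N-inv), and 14447 and 15904 (SC). Its N-inv arrays were lowest, at -0.07 ± 0.15 (SE) against PBS. Sdhd measured 3850 and 4098 in PBS, 4503 and 4167 in N-inv, then 4049 and 4660 in SC, so that N-inv and SC overlapped.

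Complex III had 8 genes, with medians of 0.04 in N-inv against PBS, -0.01 in N-inv against SC and 0.08 in SC against PBS. In N-inv against PBS the median was -0.04 with quantile normalization, and in N-inv against SC it was 0.04 without SC replicate 2. Uqcrfs1, the Rieske iron-sulfur protein, measured 11129 and 11336 (PBS), 11272 and 11856 (N-inv), and 10749 and 12451 (SC), and the groups overlapped. Uqcrc1, a core protein, measured 12423 and 12284 in PBS, 12347 and 13796 in N-inv, then 11678 and 11240 in SC. Both SC arrays were lowest, with N-inv minus SC at 0.19 ± 0.15 (SE). Uqcrc2, the other core protein, had N-inv minus PBS at 0.04 ± 0.17 (SE), and the small subunits Uqcrb, Uqcrh and Uqcrq had 0.03, -0.01 and 0.05.

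A further pair of small subunits of complex III varied more between arrays. Uqcr11 measured 7665 and 7210 (PBS), 8427 and 11172 (N-inv), and 8432 and 9459 (SC). Both PBS arrays were lowest, and N-inv minus PBS was 0.38 ± 0.19 (SE, 95% interval -0.08 to 0.84), and no member had a smaller p in that comparison. It was 0.59 without N-inv replicate 1 and 0.18 without N-inv replicate 2. Uqcr10 measured 1095 and 1303 in PBS, 1053 and 1062 in N-inv, then 1644 and 1285 in SC. Its N-inv arrays were lowest, with N-inv minus SC at -0.45 ± 0.19 (SE, adjusted p = 0.563 in limma) and -0.62 without SC replicate 2, where the unadjusted p was under 0.05. Without SC replicate 1 it was -0.27. For Uqcr10, N-inv minus PBS was -0.17 on the brightest probe set and 0.11 with the mean of all tested probe sets.

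Complex IV had 12 genes above the filter, 10 of them higher in N-inv than in PBS (83.3%), with a median of 0.07. In that comparison 7571 of all 12626 genes were higher, and 79.8% of the brightest 10% of genes. With quantile normalization 3 of 12 were higher and the median was -0.02. In SC against PBS 9 of 12 were higher (75.0%, against 46.8% of all genes and 62.2% of the brightest 10%), with a median of 0.10, and with quantile normalization 5 of 12, with a median of -0.01; it was 0.03 without SC replicate 2. Cox4i1, the main form of the largest nuclear subunit, measured 43153 and 44097 (PBS), 45751 and 47854 (N-inv), and 47958 and 52536 (SC). The groups did not overlap, yet N-inv minus PBS was 0.10 ± 0.15 (SE, 95% interval -0.27 to 0.47) and SC minus PBS 0.20 ± 0.15 (SE, 95% interval -0.16 to 0.57). With quantile normalization N-inv minus PBS was -0.006. Under other processing settings of all arrays, SC minus PBS was as low as 0.01. Cox5a measured 30961 and 31724 in PBS, 32992 and 33540 in N-inv, then 30231 and 39224 in SC, where the 2 SC arrays lay on either side of all others. Cox5b, the zinc-binding subunit, measured 47433 and 51250 (PBS), 47775 and 53415 (N-inv), and 55117 and 55917 (SC). On each of its 5 tested probe sets both SC arrays were above both N-inv arrays. The N-inv minus SC difference ran from -0.57 on the dimmest probe set to -0.14 on the brightest.

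Cox7c, a small membrane subunit, had the largest difference among the 5 members with an unadjusted p under 0.05. It measured 240.3 and 165.6 in PBS, 223.5 and 198.3 in N-inv, then 387.5 and 343.2 in SC. Both SC arrays were above the other 4. SC minus PBS was 0.79 ± 0.21 (SE, 95% interval 0.30 to 1.29, adjusted p = 0.520 in limma), and N-inv minus SC was -0.73 ± 0.21 (adjusted p = 0.464 in limma). These were 0.87 and -0.81 without SC replicate 2. The probe set is dim, and the gene's other probe set lay below the filter.

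Several complex IV subunits exist as a common form and a form known from heart and skeletal muscle. For the common forms Cox6a1, Cox7a2, Cox8a and Cox6b1, N-inv minus PBS lay between -0.01 and 0.10. Cox6a1 measured 34724 and 38159 (PBS), 38618 and 39232 (N-inv), and 37916 and 41610 (SC). Cox7a2 measured 37926 and 39754 in PBS, 39650 and 37735 in N-inv, then 38939 and 42766 in SC, and its groups overlapped. Cox8a measured 2861 and 3245 (PBS), 3034 and 3121 (N-inv), and 2878 and 2919 (SC), and Cox6b1 lay between 32747 and 36804 on all arrays. Of the muscle forms, Cox7a1 and Cox8b lay below the filter, at 82.5 to 228.7 and 6.14 to 76.5 on single arrays. Cox6a2 measured 148.2 and 112.2 in PBS, 180.3 and 231.1 in N-inv, then 250.5 and 130.8 in SC, with N-inv minus PBS at 0.57 ± 0.30 (SE, 95% interval -0.14 to 1.29). The unadjusted p of this difference was under 0.05 with SC replicate 2 left out. Cox4i2, the form known from lung, lay below the filter at 63.6 to 129.9, as did Cox6b2, known from testis, at 108.9 to 178.8. Cox7a2l, which joins complexes III and IV into supercomplexes, lay between 16320 and 17734.

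Complex V had 17 genes above the filter, with medians of 0.03 in N-inv against PBS, 0.00 in N-inv against SC and 0.03 in SC against PBS. With quantile normalization these were -0.04, -0.03 and -0.03. The last pair was 0.05 and -0.05 without SC replicate 2. Atp5b, the catalytic beta subunit, measured 36787 and 35614 (PBS), 35725 and 36940 (N-inv), and 37160 and 40344 (SC). N-inv and PBS overlapped, with a difference of 0.01 ± 0.15 (SE, 95% interval -0.36 to 0.37). Atp5a1, the alpha subunit, measured 29543 and 30082 in PBS, 31056 and 32908 in N-inv, then 31490 and 35000 in SC, so that both PBS arrays were lowest. Atp5c1, the gamma subunit of the rotor, measured 31967 and 32387 (PBS), 32969 and 33009 (N-inv), and 36364 and 40874 (SC). Its SC arrays were highest, with SC minus PBS at 0.26 ± 0.15 (SE, 95% interval -0.11 to 0.63). The delta and epsilon subunits, Atp5d and Atp5e, had N-inv minus PBS at 0.05 and 0.03.

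Atp5pb, subunit b of the outer stalk that holds the catalytic head in place, measured 22463 and 24155 in PBS, 24523 and 24050 in N-inv, then 29014 and 33185 in SC. Both SC arrays were above the other 4. SC minus PBS was 0.41 ± 0.16 (SE, 95% interval 0.03 to 0.80, adjusted p = 0.621 in limma), and N-inv minus SC was -0.35 ± 0.16 (SE, adjusted p = 0.585 in limma). Its dimmer probe set measured 6228 and 6753 (PBS), 5501 and 5346 (N-inv), and 9661 and 8193 (SC), with N-inv minus SC at -0.71 ± 0.17 (SE, adjusted p = 0.449 in limma). The brighter probe set gave SC minus PBS at 0.32 without SC replicate 2, and its unadjusted p was no longer under 0.05. Atp5h, subunit d of the same stalk, measured 30391 and 35556 in PBS, 36749 and 41966 in N-inv, then 29033 and 40563 in SC, and N-inv minus PBS was 0.26 ± 0.21 (SE).

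The c-ring that the protons turn is one protein encoded by 3 genes with different import sequences. Atp5g1 measured 5100 and 5769 (PBS), 5465 and 5426 (N-inv), and 4942 and 4803 (SC), where both SC arrays were lowest. Its N-inv minus SC difference was 0.16 on this brightest probe set and -0.07 with the mean of all tested probe sets. Atp5g2 measured 2871 and 2561 in PBS, 2768 and 2434 in N-inv, then 2507 and 2788 in SC, and its groups overlapped. Atp5g3 measured 41220 and 45222 (PBS), 44047 and 44008 (N-inv), and 43823 and 49190 (SC), and its groups overlapped. All 9 intervals of the 3 genes lay within a 1.5-fold change. Atp5l, the membrane subunit g, measured 2599 and 2709 in PBS, 2500 and 2259 in N-inv, then 1992 and 2276 in SC. Both PBS arrays were highest, with SC minus PBS at -0.31 ± 0.16 (SE, adjusted p = 0.708 in limma). It was -0.41 without SC replicate 2, at an unadjusted p under 0.05. Atp5k, subunit e, measured 20547 and 20379 (PBS), 18413 and 18004 (N-inv), and 18463 and 17445 (SC). Its PBS arrays were also the highest, and N-inv minus PBS was -0.17 ± 0.15 (SE).

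**Figure D3:**
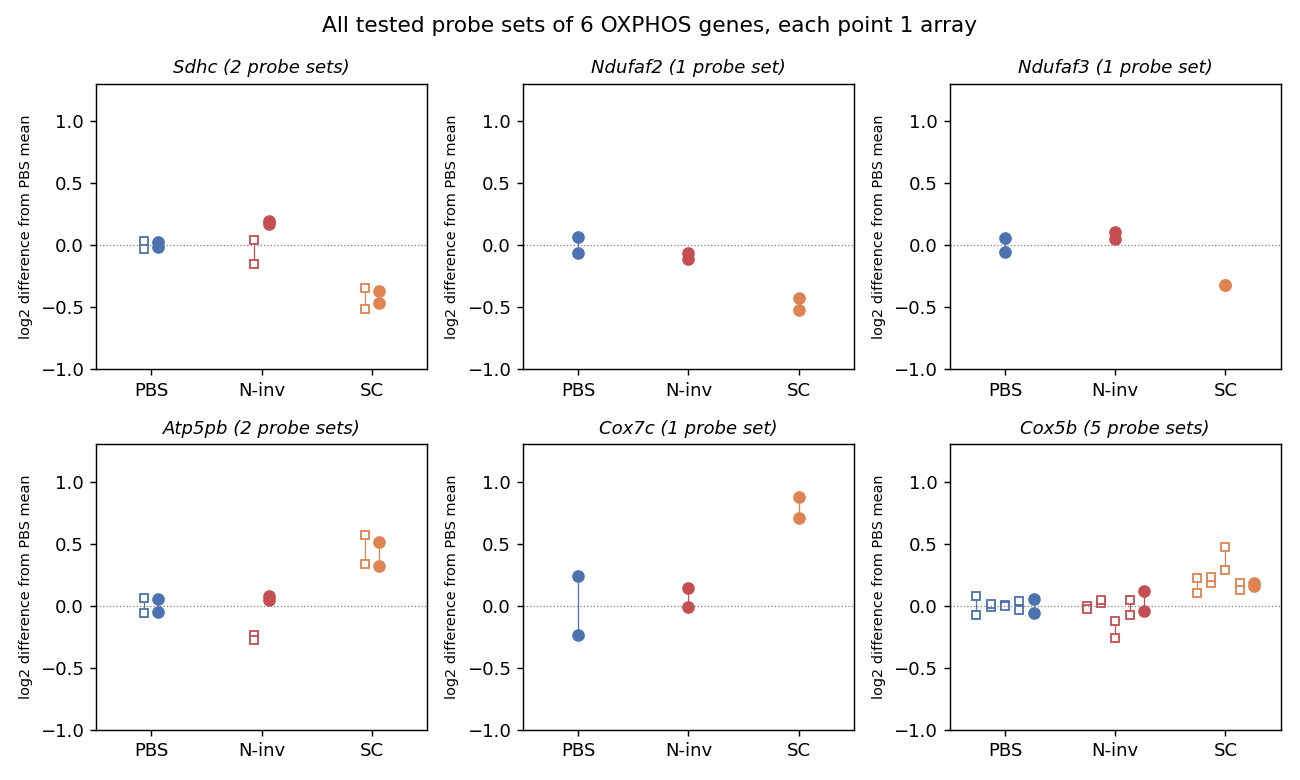
Points plot the log2 difference of each array from the PBS mean for every tested probe set of 6 genes, filled for the brightest probe set and open for the others, with a line joining the 2 arrays of a group. The SC points of Sdhc, Ndufaf2 and Ndufaf3 lie below the PBS points, and those of Atp5pb, Cox7c and Cox5b lie above them.

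Where a gene had several tested probe sets, they often differed in sign. This concerned 45 of the 84 genes, and all probe sets of a gene had the same sign in 21 of them for N-inv against PBS, 25 for N-inv against SC and 28 for SC against PBS. The median range between probe sets of a gene was 0.17, 0.22 and 0.11, larger than the median absolute difference of the members. The largest range was 0.68 for Sdha, 1.08 for Ndufs8 and 0.63 for Atp5k, in the same order of comparisons.

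Genes that work beside the chain were read from related lists. Cyc1, cytochrome c1 of complex III, and Cycs, the mobile carrier cytochrome c, had N-inv minus PBS at 0.07 ± 0.16 and 0.00 ± 0.17 (SE). ND5, the single gene of mitochondrial DNA with an annotated probe set, measured 61304 and 66832 in PBS, 72334 and 76903 in N-inv, then 61255 and 66479 in SC. Both N-inv arrays were above those of the other groups, with N-inv minus PBS at 0.22 ± 0.16 (SE). Of 35 assembly factors outside the Nduf names, 0 had an adjusted call, and 2 had an unadjusted p under 0.05, both of them higher in SC than in PBS (background 2.24%), with 0 in the other comparisons. These were Cox18, an insertase for complex IV, at 0.48 ± 0.16 in SC minus PBS (SE, adjusted p = 0.589 in limma), and Sdhaf2, which adds flavin to Sdha, at 0.48 ± 0.17 (SE, adjusted p = 0.601 in limma). They were 0.57 and 0.49 without SC replicate 2, and the unadjusted p of Sdhaf2 was no longer under 0.05.

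Regulators of mitochondrial biogenesis had a negative median in N-inv against PBS, -0.09, with 3 of 14 higher (21.4%, against 7571 of all 12626 genes) and 11 lower; 0 passed the adjusted threshold. The median was -0.12 with the values as deposited and -0.10 with quantile normalization. In SC against PBS it was -0.14, with 5 of 14 higher (35.7%, against 46.8% of all genes), and in N-inv against SC -0.01. Relative to each gene's mean over the arrays, the median regulator lay at 0.03 and 0.14 in PBS, -0.04 and -0.02 in N-inv, then -0.08 and 0.08 in SC. These SC medians without SC replicate 2 are not given here. Esrra, a nuclear receptor that drives respiratory genes, measured 1988 and 1947 (PBS), 1281 and 1570 (N-inv), and 1630 and 1499 (SC). Both PBS arrays were highest, with N-inv minus PBS at -0.47 ± 0.17 (SE). Nrf1, whose site was searched in the promoters above, measured 859.5 and 687.6 in PBS, 595.9 and 791.9 in N-inv, then 940.5 and 1031 in SC, and its N-inv minus SC difference was -0.50 ± 0.21 (SE, adjusted p = 0.553 in limma). It was -0.44 without SC replicate 2, and its unadjusted p was no longer under 0.05.

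Glycolysis supplies pyruvate upstream of the chain. All 13 of its measured genes were higher in N-inv than in PBS, with a median of 0.15, and 10 of 13 with quantile normalization, with a median of 0.07; 0 passed either threshold of p. As given for complex IV, 7571 of all 12626 genes and 79.8% of the brightest 10% were higher in this comparison. In SC against PBS 11 of the 13 were also higher, with a median of 0.08. This was 84.6%, against 46.8% of all genes and 62.2% of the brightest 10%. Ldha, which turns pyruvate into lactate, measured 5303 and 7437 (PBS), 8352 and 8864 (N-inv), and 8138 and 7977 (SC), with N-inv minus PBS at 0.45 ± 0.20 (SE). The 16 genes of the citric acid cycle and pyruvate dehydrogenase had a median of 0.05 in N-inv against PBS, and 0.00 with quantile normalization. The 76 mitochondrial ribosomal proteins, which translate the mitochondrial subunits, had a median of 0.03, and the 41 cytosolic ones 0.08, with 37 of 41 higher (90.2%). With quantile normalization 23 of the 41 were higher, with a median of 0.01. In SC against PBS 35 of the 41 were higher (85.4%), with a median of 0.11. The SC medians of this paragraph without SC replicate 2 are not given here. The difference between these lists and the respiratory genes was not tested.

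**Figure D4:**
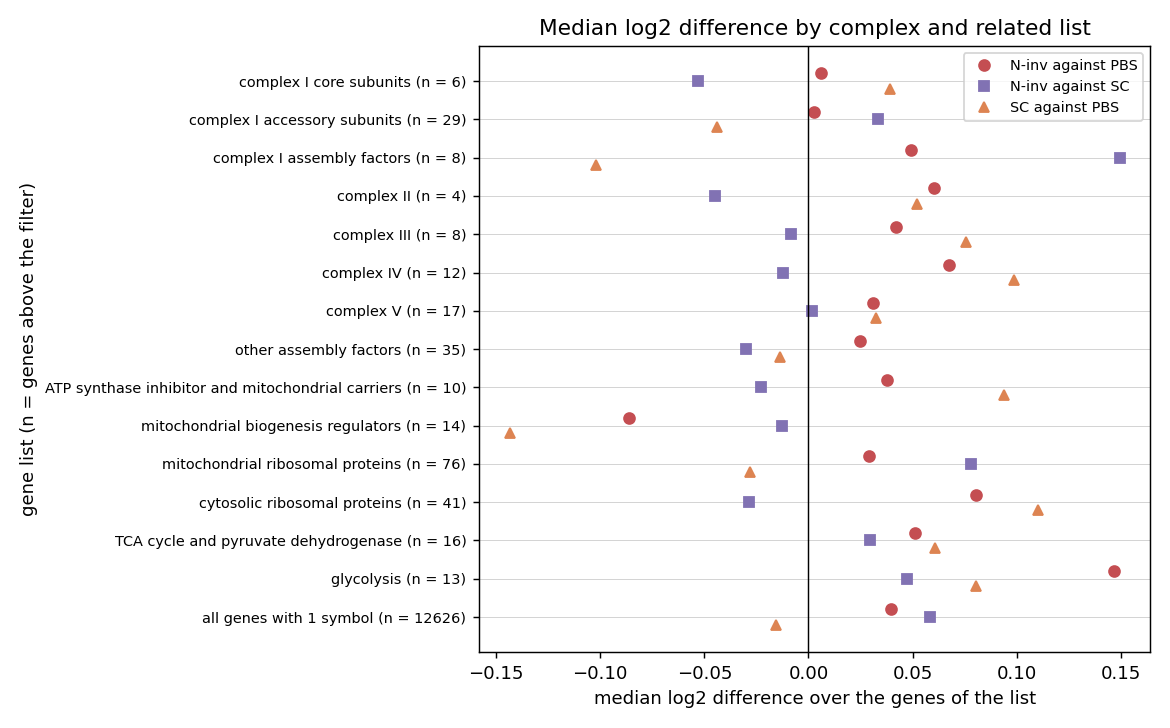
Points plot the median log2 difference over the genes of each complex and related list, with the number of genes above the filter beside each name and 1 symbol per comparison. All medians of the respiratory complexes lie within 0.10 of 0, and the assembly factors of complex I reach 0.15 in N-inv against SC.

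Cell type markers moved with some of these comparisons. The 8 measured oligodendrocyte markers of 9 had a median of -0.49 in SC against PBS and 0.52 in N-inv against SC (-0.34 and 0.34 without SC replicate 2), and their summed intensity was 201390 to 205581 in SC, 206627 to 221215 in PBS and 220332 to 221947 in N-inv. The 9 microglia markers had a median of 0.76 in N-inv against PBS, with summed intensities of 42142 to 47048 in N-inv, 28870 to 29296 in PBS and 25069 to 33984 in SC. The 7 astrocyte markers had a median of 0.10 in N-inv against PBS, with 5 higher and 2 lower, and of -0.05 in SC against PBS, with 2 higher and 5 lower. In SC against PBS all 7 were lower without SC replicate 2, with a median of -0.35. Their summed intensity was 106824 to 118882 in PBS, 135311 to 136453 in N-inv and 90717 to 133144 in SC. Gfap, the astrocyte filament and the list's highest difference in N-inv against PBS, measured 6653 and 7913 in PBS, 20479 and 19174 in N-inv, then 4632 and 15348 in SC. The 9 neuron markers summed to 209352 to 213430 in PBS, 220197 to 230111 in N-inv and 203688 to 234989 in SC. No marker was at 0. The part of these markers and of the control probe ratios in the SC values of Sdhc, Ndufaf2, Ndufaf3, Cox7c and Atp5pb was not tested.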

How the data were processed

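Total RNA of 6 L1 cord samples was extracted with TRIzol, and cRNA was made from 100 ng by two-cycle Affymetrix labelling with biotin, per the labels' protocols. The authors deposited intensities on a linear scale, with a column for each array. Every array had a 2% trimmed mean of 1000.01, so the authors had scaled the deposited intensities. The sources do not name the method of probe summary.

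Of 45101 probe sets, 64 controls were left out. The platform annotation gave 1 symbol for 34945, several for 932 and none for 9160. Arrays were brought to the same median, 255.8, and analysed as log2(intensity + 25.58). Probe sets with a mean above the 40th percentile (155.2) were kept: 27022, for 12626 named genes. A gene is its brightest probe set, chosen over all arrays. limma 3.58.1 in R 4.3.3 (lmFit, eBayes) fitted 1 mean per group over 6 arrays, two-sided. There were 3 residual and 3.59 prior degrees of freedom. P-values were adjusted over all probe sets by Benjamini-Hochberg, at 0.05. An exact permutation test of 2 against 2 arrays cannot go below p = 0.333, so none was used. Array number limits the precision. The script was tested on simulated data.

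The members and gene lists were chosen with earlier results of these data known. Named members are fixed core subunits and isoforms, and the 2 smallest p in each complex and comparison. For other lists they come from the 2 smallest p in each comparison, but only some of these genes are named. Genes left out include Mrpl1, Mrpl2, Mrps25 and Acad9. Ndufaf5, Ndufaf7, Ndufb5 and Cox7a2l stand outside this rule and were chosen after their values were seen, and the rest of the core, complex III and F1 genes are given for completeness. Promoters came from RefSeq (GRCm38.p6). Alternatives covered scaling, pseudocount, filter, probe set choice, variance model, replicate block and each array left out.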

Additional observations from a re-analysis of the deposited data

How the results depend on the processing

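No respiratory gene passed the adjusted threshold in any comparison under any of the 16 alternatives. The median log2 difference of the 84 genes in N-inv against PBS was 0.031, and -0.042 with quantile normalization. Leaving out 1 array moved it between 0.018 and 0.044 in that comparison, between -0.070 and 0.081 in N-inv against SC, and between -0.052 and 0.092 in SC against PBS. Both extremes of the latter 2 comparisons came from leaving out SC replicate 1 or SC replicate 2. The number of members with an unadjusted p under 0.05 was 0, 4 and 4 in the 3 comparisons. Under alternatives with all arrays it ran from 0 to 1, 2 to 6 and 2 to 5, and with 1 array left out from 0 to 1, 1 to 7 and 0 to 7. Without SC replicate 2 it was 7 in both comparisons with SC, and the cause was not tested. Of 1671 values of named genes under alternatives, 99 changed sign, 0 of them where the unadjusted p had been under 0.05. Differences with such a p lie far from 0 relative to their SE in these same arrays, so that 0 does not test them. Where a group is left with 1 array, that array is assumed to vary like the other groups.

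The replicate numbers did not pair the arrays: deviations of same-numbered arrays correlated at 0.01, 0.04 and -0.03. With the replicate number as a block, 0 members were called, and the counts at an unadjusted p under 0.05 were 0, 3 and 4. The block did not end a call, since there was none.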
